A study of Mus musculus with 6 samples.

Results

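The mitochondrially encoded genes are the 37 genes of the mouse mitochondrial chromosome, and they were taken as all rows of the count table whose symbol begins with mt-. They made up 37 of the 55450 genes in the table and comprised 13 protein-coding genes, 2 rRNA genes and 22 tRNA genes. Kidney mRNA was compared between 3 day-0 mice and 3 day-21 mice of a hyperuricemia-related chronic kidney disease model. All 6 animals were male, wild-type C57BL/6J mice, purchased at 7 weeks of age and housed for 1 week before the start. For 21 days, day-21 mice were gavaged daily with 2 agents, adenine at 0.16 g/kg and, to block urate breakdown, potassium oxonate at 2.4 g/kg. Day-0 mice were the control group and carry the treatment label 20% PEG. Each library came from kidney tissue of a labelled replicate. Groups differed in both the agents given and the time under study, so these cannot be told apart.

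The mitochondrial chromosome is a small circle that is copied from both strands as long transcripts, and the tRNAs that sit between the other genes are cut out to release the mRNAs and rRNAs. Its protein-coding genes all specify subunits of respiratory chain complexes I, III and IV or of the ATP synthase, complex V, while the remaining subunits of these complexes are encoded in the nucleus. The kidney proximal tubule is known for its dense mitochondria, which power the uptake of filtered solutes.

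Most members on the forward strand lie end to end, and some overlap. The stretch shared by mt-Atp8 and mt-Atp6, both subunits of complex V, is shown because a read from it fits 2 genes at once. It covers 43 bases at chrM:7927-7969 (GRCm38, forward strand), and the capitals mark the ATG that opens mt-Atp6 and the TAA that ends mt-Atp8.

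mt-Atp8 and mt-Atp6 overlap: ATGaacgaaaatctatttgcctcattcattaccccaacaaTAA

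A second set is shown because several members have near-identical copies in the nuclear genome, so that reads may fit in either place. A block of 7 unprocessed pseudogenes on the reverse strand of chromosome 1 (GRCm38, chr1:24611535-24616197, 4663 bases) spans the stretch chrM:6381-11042 (4662 bases). It carries copies of 7 members in the same order, of which those of mt-Co1 and mt-Nd4 are partial. The bases between the copies were not compared. The windows below give the first 61 bases of 3 of these copies beside the same stretch of the member, each read 5′ to 3′ from the GENCODE transcripts. Capitals mark the bases that differ. No base differs for mt-Co3 (chrM:8607-8667) and Gm28437 (chr1:24613911-24613971).

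mt-Co3: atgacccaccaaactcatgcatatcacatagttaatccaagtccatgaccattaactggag

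Gm28437: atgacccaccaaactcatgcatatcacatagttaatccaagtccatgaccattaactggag

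mt-Nd3 (chrM:9459-9519) and Gm28438 (chr1:24613059-24613119) differed at 1 base, T3C, counted from 1 at the 5′ end of the member.

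mt-Nd3: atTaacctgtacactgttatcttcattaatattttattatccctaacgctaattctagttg

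Gm28438: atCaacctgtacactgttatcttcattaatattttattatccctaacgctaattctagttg

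mt-Co1 (chrM:6381-6441) and Gm29216 (chr1:24616137-24616197) differed at the edge of the block by T1056A, C1057T, A1059G, A1060G, C1062A and A1066T, and at no base after that.

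mt-Co1: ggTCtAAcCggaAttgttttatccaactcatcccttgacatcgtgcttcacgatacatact

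Gm29216: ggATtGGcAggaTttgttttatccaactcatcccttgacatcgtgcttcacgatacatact

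The last pair, 2 neighbouring tRNA genes on opposite strands, is shown because their counts lay at opposite ends of the range. mt-Ts1 (chrM:6870-6938, reverse strand) carries serine, and the capitals mark the 3 bases at which it overlaps the end of mt-Co1. mt-Td (chrM:6942-7011, forward strand) carries aspartate.

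mt-Ts1: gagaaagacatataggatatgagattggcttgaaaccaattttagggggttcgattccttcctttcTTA

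mt-Td: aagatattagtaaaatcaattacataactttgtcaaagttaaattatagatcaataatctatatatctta

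The libraries held 10963849 to 14333311 counts. In CPM, counts scaled to a common library size with TMM factors, the 6 fixed markers of the proximal tubule were present in every library, as the kidney label requires. The strand setting of the counting and the treatment of reads that fit 2 places are not given in the sources used here. Values for overlapping genes and for genes with copies are therefore uncertain as to which gene the reads came from.

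Mitochondrially encoded transcripts made up a smaller part of the library on day 21. Together the 37 genes took 9.41%, 9.39% and 9.86% of all counts at day 0 and 4.42%, 4.35% and 3.82% at day 21. The groups did not overlap, and the mean fell from 9.55% ± 0.264 to 4.20% ± 0.327 (SD, n = 3 each; 2.28-fold). A two-sided exact permutation test gave p = 0.1, the smallest that 3 against 3 mice allow. Nearly all of these counts came from protein-coding genes, at 9.35% ± 0.208 on day 0 and 4.11% ± 0.326 on day 21.

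By complex, genes of complex I (NADH dehydrogenase, the entry point for electrons) took 3.61% ± 0.376 of the library on day 0 and 1.55% ± 0.0856 on day 21. The only complex III gene, mt-Cytb, took 1.5% ± 0.0888 and 0.610% ± 0.0530. Genes of complex IV (cytochrome c oxidase, which passes electrons to oxygen) took 4.23% ± 0.267 and 1.95% ± 0.189. The complex V genes were far less counted, at 0.00477% ± 0.00142 and 0.00132% ± 0.000469. A nuclear copy matches nearly all of mt-Atp6, so some of its reads may have been counted elsewhere. Nearly all complex IV counts came from mt-Co1, and mt-Co2 and mt-Co3 have such copies too. The shares by complex may therefore depend on how reads that fit 2 places were assigned. The 2 rRNA genes took 0.140% ± 0.0556 and 0.0555% ± 0.00343, and the tRNA genes 0.0652% ± 0.0139 and 0.0287% ± 0.00557. In each of these classes every day-21 mouse lay below every day-0 mouse (exact permutation p = 0.1, adjusted 0.1 over 8 shares). Since the libraries were made to sequence mRNA, the rRNA and tRNA shares say little of how abundant those RNAs were in the tissue.

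**Figure D1:**
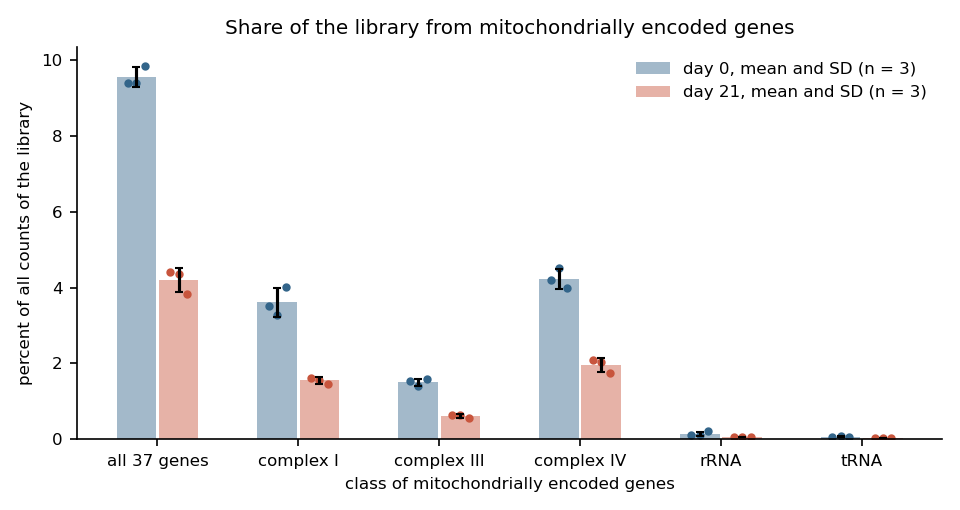
Percent of each library's counts from mitochondrially encoded genes (y axis, from 0) for all members and by class, with complex V left out for its small share; points are mice, bars the mean and error bars the SD (n = 3). All members together fell from 9.55% on day 0 to 4.20% on day 21, and the groups were apart in every class drawn.

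Gene by gene, the quasi-likelihood test of edgeR was run over the 16592 genes with enough counts, with Benjamini-Hochberg adjustment. A differentially expressed gene (DEG) needed a fold over 1.5 at an adjusted p under 0.05. Of the 37 members, 22 were tested. 21 of the 22 were called lower, none was called higher, and mt-Tw did not pass. Among all genes tested, 15.5% were called lower and 19.6% higher on day 21. The groups did not overlap for 20 of the 22 members, all lower on day 21, against 26.4% of all genes that were lower without overlap. The median log2 fold change of the 22 was -1.64, against 0.03 over all genes tested. The other 15 members, mt-Atp8 and 14 tRNA genes, had too few counts to be tested. Fewer mitochondria, fewer cells rich in them and less mitochondrial RNA per cell cannot be told apart in bulk tissue.

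**Figure D2:**
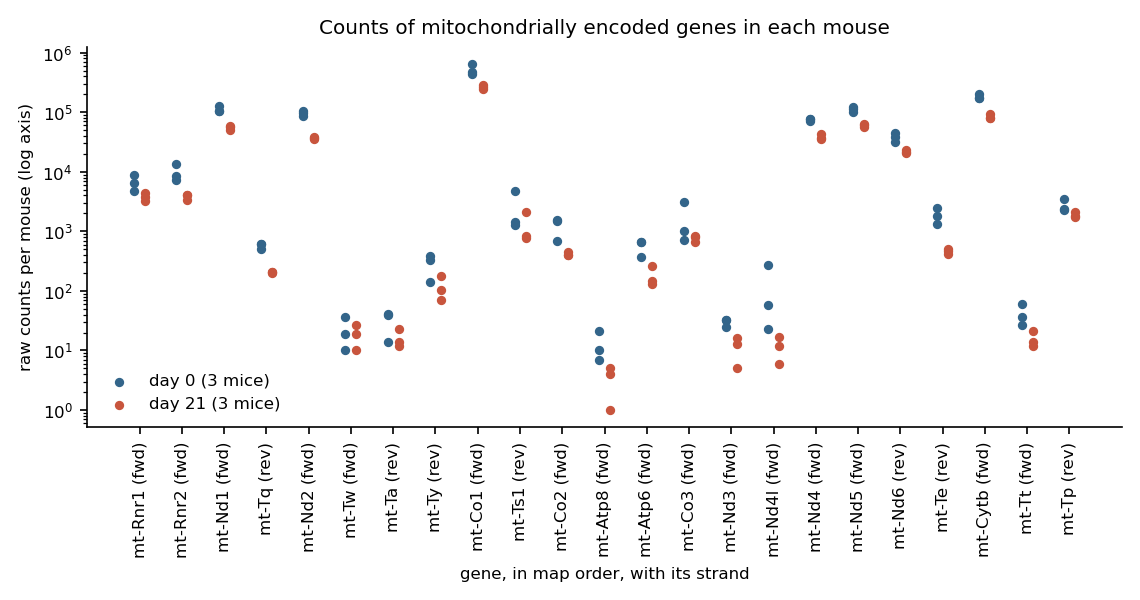
Raw counts per mouse (y axis, log scale) of the protein-coding, rRNA and tested tRNA genes in their order along the mitochondrial chromosome, with day-0 and day-21 mice in separate colours. Forward-strand mRNAs on both sides of the stretch from mt-Co2 to mt-Nd4l reached 35595 to 638849 counts, and the protein-coding genes within that stretch 1 to 3105.

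Complex I has 7 mitochondrially encoded subunits, and all 7 were lower on day 21, with a median log2 fold change of -1.58. mt-Nd1, part of the membrane arm where quinone is reduced, had counts of 105986, 126080 and 103040 at day 0 and of 51170, 56948 and 57666 at day 21. Its log2 fold change was -1.58 (SE 0.13; adjusted p = 7.9e-06). mt-Nd2, a proton-pumping subunit, had counts of 87091, 98747 and 106852 at day 0 and of 35595, 38729 and 36732 at day 21, a log2 fold change of -1.98 (SE 0.15; adjusted p = 7.1e-06). In both genes the highest day-21 mouse lay well under the lowest day-0 mouse.

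The other membrane-arm subunits with high counts, mt-Nd4, mt-Nd5 and mt-Nd6, were lower as well. mt-Nd4 had counts of 70253, 76294 and 77531 at day 0 and of 36520, 43020 and 36157 at day 21 (log2 -1.53, SE 0.14). mt-Nd5, the longest protein-coding member at 1824 bases, had 102419, 122825 and 115447 and then 61065, 63478 and 55955 (log2 -1.49, SE 0.15). mt-Nd6, the only protein-coding member on the reverse strand, had counts of 32149, 44209 and 37761 at day 0 and of 20532, 23494 and 21401 at day 21. Its log2 fold change of -1.37 (SE 0.13; adjusted p = 1.8e-05) was the nearest to 0 among the 12 protein-coding members tested.

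The 2 short complex I subunits were measured with few counts. mt-Nd3 had counts of 32, 32 and 25 at day 0 and of 13, 16 and 5 at day 21 (log2 -1.94, SE 0.44; adjusted p = 0.0048). mt-Nd4l had counts of 57, 23 and 274 at day 0 and of 17, 12 and 6 at day 21. Day-0 replicate 3 stood apart there, and the log2 fold change of -3.97 (SE 0.90; 95% interval -5.98 to -1.96; adjusted p = 0.0049) moved to -2.32 without it. With limma-voom the change of mt-Nd4l was -3.16 and did not pass.

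mt-Cytb encodes cytochrome b, the core of complex III, and had 173246, 200258 and 172696 counts on day 0. On day 21 it had 81335, 91684 and 78583 counts. The log2 fold change was -1.69 (SE 0.14; 3.22-fold lower; adjusted p = 1.0e-05).

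All 3 complex IV subunits fell, with a median log2 fold change of -1.56. mt-Co1, the catalytic subunit, had counts of 472173, 638849 and 434239 at day 0 and of 262714, 291197 and 247204 at day 21 (log2 -1.50, SE 0.16; adjusted p = 4.8e-05). By mean count it ranked 1 among all genes on day 0 and 3 on day 21. mt-Co2, which takes electrons from cytochrome c, had 696, 1533 and 1491 and then 397, 405 and 448 (log2 -2.13, SE 0.24). mt-Co3 had counts of 704, 3105 and 1019 at day 0 and of 672, 830 and 805 at day 21. The raw counts of mt-Co3 overlapped between groups, its scaled values did not, and its log2 fold change of -1.56 (SE 0.37; adjusted p = 0.0065) became -0.85 without day-0 replicate 2, still a DEG.

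mt-Atp6, which forms part of the proton channel of complex V, had counts of 369, 658 and 673 at day 0 and of 130, 149 and 263 at day 21 (log2 -2.23, SE 0.27; 4.69-fold lower; adjusted p = 1.1e-04). Every day-21 mouse was below every day-0 mouse. mt-Atp8, its neighbour and overlapping partner, had 10, 21 and 7 counts and then 1, 5 and 4, and was not tested. Thus 12 of the 13 protein-coding members could be tested, and the 12 were lower.

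**Figure D3:**
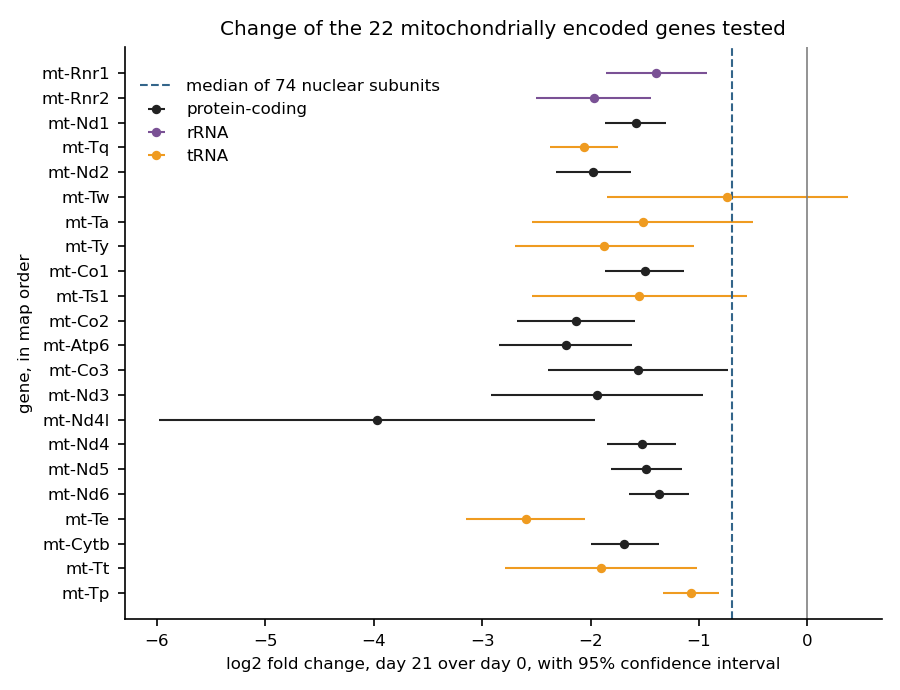
Log2 fold change of day 21 against day 0 (x axis) for the 22 members tested, with 95% intervals, and a dashed line at the median of the nuclear respiratory chain subunits (-0.70). All 22 estimates were below 0, and the interval of mt-Tw alone crossed it.

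Both rRNA genes fell. mt-Rnr1, the RNA of the small mitochondrial ribosomal subunit, had counts of 4810, 6574 and 8674 at day 0 and of 3288, 3845 and 4356 at day 21 (log2 -1.40, SE 0.21; adjusted p = 4.0e-04). mt-Rnr2, the RNA of the large subunit, had 7422, 8654 and 13675 and then 3312, 4116 and 4084 (log2 -1.97, SE 0.24; adjusted p = 9.4e-05). Neither gene overlapped between the groups. Relative to protein-coding members, rRNA counts did not differ beyond the spread, at ratios of 0.0117, 0.0116 and 0.0213 on day 0 and 0.0120, 0.0131 and 0.0158 on day 21 (exact permutation p = 1).

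Counts of tRNA genes split by strand. All 8 tRNA genes on the reverse strand had counts, 6 of them were tested and the 6 fell. Of the 14 on the forward strand, 9 had no count in any mouse, which allows up to 3 counts per library, and 2 were tested. The pair of sequences above shows the contrast: mt-Ts1 had counts of 1289, 4751 and 1461 at day 0 and of 824, 2073 and 775 at day 21, while mt-Td, just beyond it, had 0 in all 6 mice. However, mt-Td lies within the stretch spanned by the block on chromosome 1, and whether its reads fit 2 places was not tested. Forward-strand tRNA genes together had 46 to 98 counts per library on day 0 and 24 to 40 on day 21, against 5657 to 11031 and 3382 to 4981 on the reverse strand. Since it is not given whether the counting used strand, reads from the opposite strand may be among those of the reverse-strand tRNA genes. Every tRNA gene was also shorter than a read, so a read on one may cover a neighbour as well. How such reads were counted is not given either. The part of the counting in this split by strand, and in the falls of the tRNA genes, was not tested.

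The 5 tRNA genes with the highest mean counts were all on the reverse strand, and all 5 fell. mt-Tp (proline) had counts of 2407, 3469 and 2300 at day 0 and of 1769, 2110 and 1828 at day 21 (log2 -1.07, SE 0.12; adjusted p = 4.8e-05), the least negative change of any member called. mt-Te (glutamate), which lies next to mt-Nd6, had 1309, 1807 and 2496 and then 501, 471 and 415 (log2 -2.60, SE 0.25; adjusted p = 2.1e-05). mt-Ts1 changed by -1.55 (SE 0.44; adjusted p = 0.016). For mt-Ts1 the change was -0.87 without day-0 replicate 2 and no longer passed, nor did it without day-21 replicate 1 (-1.39) or 3 (-1.30). mt-Tq (glutamine) had 496, 623 and 605 counts and then 204, 209 and 200 (log2 -2.06, SE 0.14), and mt-Ty (tyrosine) 139, 332 and 382 and then 71, 102 and 176 (log2 -1.88, SE 0.37).

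The remaining tRNA genes with counts were sparse. mt-Tt (threonine, forward strand) had counts of 36, 60 and 27 at day 0 and of 21, 14 and 12 at day 21 (log2 -1.90, SE 0.40; adjusted p = 0.0030). mt-Ta (alanine) had 14, 40 and 41 and then 12, 14 and 23, with overlapping groups. Its log2 fold change of -1.52 (SE 0.46; adjusted p = 0.021) lost the call when any of 4 mice was left out (-1.44 and -1.22 without day-0 replicate 2 or 3, -1.40 and -1.38 without day-21 replicate 1 or 2), and with library size alone (-1.13). mt-Tw (tryptophan) had 10, 36 and 19 counts and then 19, 10 and 27 (log2 -0.74, SE 0.50; 95% interval -1.85 to 0.37; adjusted p = 0.26). mt-Tn (asparagine) reached 8 counts and mt-Tc (cysteine) 7 in any mouse, and mt-Tl1, mt-Ti and mt-Tm had 1 count each in a single day-0 mouse.

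Within the protein-coding members the mixture shifted little. mt-Co1 took 45.1% ± 3.68 of their counts on day 0 and 47.2% ± 0.900 on day 21, with overlapping groups. 3 of the 13 genes did not overlap between the groups. mt-Nd2 took 8.33%, 7.52% and 10.2% on day 0 and 6.47%, 6.35% and 6.86% on day 21, and mt-Cytb 16.6%, 15.3% and 16.4% and then 14.8%, 15.0% and 14.7%. mt-Nd6 went the other way, at 3.08%, 3.37% and 3.59% on day 0 and 3.73%, 3.85% and 4.00% on day 21. Each of the 3 had an exact permutation p of 0.1, adjusted to 0.433 over the 13 genes, and the percentages are not independent since they sum to the whole.

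Set against the forward-strand mRNAs, mt-Nd6 gave the same result in another form, being the only protein-coding member on the reverse strand. The ratio of its counts to theirs was 0.0317, 0.0349 and 0.0373 on day 0 and 0.0388, 0.0401 and 0.0417 on day 21, a log2 difference of 0.217 (exact permutation p = 0.1, adjusted 0.133 over 8 ratios). No mouse of one group reached the other. This ratio is not a second result beside the percentages, and its adjusted p differs because it was taken over another set of tests. Whether the counting used strand is not given in the sources used here, so reads from the opposite strand may be among those of mt-Nd6, and 14 of its bases overlap mt-Nd5. For tRNA counts relative to protein-coding ones, the log2 difference was 0.00982 (exact permutation p = 1).

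Levels per length set several mRNAs far below the others. On day 0, mt-Cytb stood at 15057 ± 575 CPM per kb (n = 3), mt-Nd1 at 11020 ± 140, mt-Nd2 at 8954 ± 1461, mt-Nd6 at 6910 ± 651 and mt-Nd5 at 5901 ± 540. mt-Co1 was the highest at 31231 ± 2608, and mt-Nd4 stood at 5158 ± 619. In contrast, mt-Co3 was at 183 ± 126, mt-Co2 at 170 ± 62.5, mt-Atp6 at 78.6 ± 23.8, mt-Nd4l at 40.2 ± 47.9 and mt-Nd3 at 8.07 ± 1.00. Neighbours in this order such as mt-Co3 and mt-Co2, or mt-Nd5 and mt-Nd4, had overlapping SD ranges.

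The 5 low mRNAs were those whose sequence is almost wholly repeated in another annotated gene. Of the 50-base words in their transcripts, 98.0% (mt-Nd3) to 100% (mt-Co2) also occurred in a nuclear gene. For mt-Nd4 this share was 62.2%, from Gm28439, which matches the first 876 of its 1378 bases. For mt-Co1 it was 51.1%, from Gm29216, Gm13340 and Gm11512 together. It was 8.19% for mt-Nd2, 7.61% for mt-Nd5 and 0 for mt-Nd1, mt-Nd6 and mt-Cytb. For mt-Atp8 it was also 0 among annotated genes, yet mt-Atp8 stood at 5.65 CPM per kb on day 0. It is 204 bases long and lies between mt-Tk and mt-Atp6, within the span of the chromosome 1 block. The block has 233 bases between Gm10925 and Gm28661, as many as the matching stretch chrM:7694-7926. The word search covered annotated transcripts only, so it could not find a copy of mt-Atp8 in that gap. The part that shared sequence played in these levels was not tested.

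**Figure D4:**
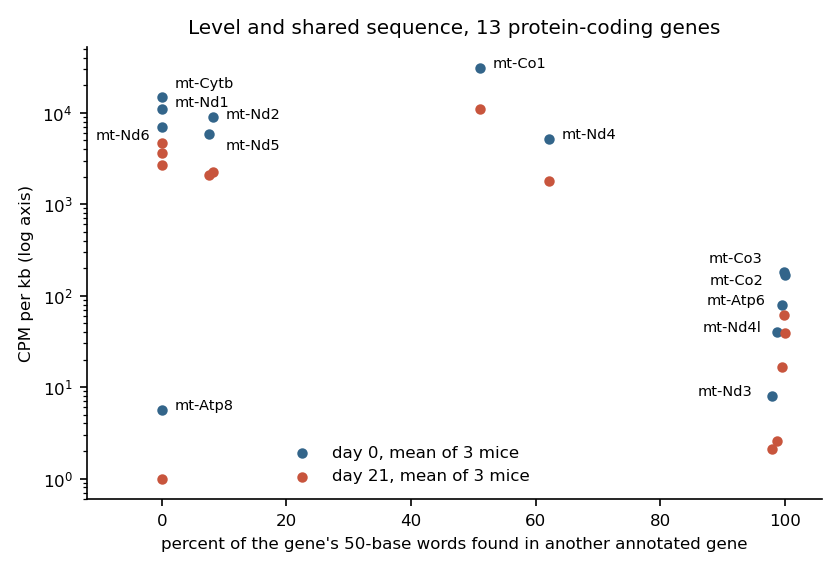
Mean CPM per kb on day 0 and day 21 (y axis, log scale; 3 mice each) against the percent of a gene's 50-base words that also occur in another annotated gene (x axis) for the 13 protein-coding members. The 5 genes with over 90% shared lay between 8.07 and 183 on day 0, and 5 of the 6 genes with under 10% between 5901 and 15057.

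Counts were also assigned to the nuclear copies, and these too were lower on day 21. 15 nuclear genes shared such words with a member, 9 of them were tested and all 9 were called lower, beside 15.5% of all genes tested. Where the sequences are the same, reads of a copy and of its member cannot be told apart. The falls of the copies are therefore not separate from those of the members. Gm10925, the copy of mt-Atp6, had counts of 1583, 1973 and 1744 at day 0 and of 738, 755 and 669 at day 21 (log2 -1.86, SE 0.12), more in each mouse than mt-Atp6 itself. Gm28437, the copy of mt-Co3 shown above, had 789, 1466 and 1113 and then 274, 342 and 688 (log2 -1.94, SE 0.28). The ratio of mt-Co3 to Gm28437 counts ran from 0.892 to 2.45 over the 6 mice, although the sequences are the same.

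The other copies whose mean reached 50 counts were lower too. Gm28661, the copy of mt-Co2, changed by -1.32 (SE 0.13), Gm29216, a copy of the end of mt-Co1, by -1.81, Gm13340, which shares words with mt-Co1, by -1.78, Gm28439, a copy of the start of mt-Nd4, by -1.84, and Gm28438, the copy of mt-Nd3, by -1.73. The mt-Co1 gene had 1077 to 1545 times the counts of Gm29216, whereas mt-Nd3 had 0.0376 to 0.168 times those of Gm28438. When the counts of each member were summed with those of its copies, an alternative chosen after seeing the data, 21 members were lower, as before, and the median of the protein-coding members was -1.70. With mt-Nd1, mt-Nd2, mt-Atp8, mt-Nd5, mt-Nd6 and mt-Cytb alone, the share of the library still fell by 2.61 percentage points.

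Nuclear subunits of the same complexes were also lower, with a smaller median change. Of 74 nuclear genes, 51 were called lower, none higher, and 23 did not pass, beside 15.5% lower and 19.6% higher among all genes tested. The median log2 fold change of the 74 was -0.70, and all estimates were below 0 (-1.25 to -0.24). With library size alone in place of TMM, which moves the median of all genes from 0.03 to 0.42, that of these subunits was -0.30 and that of the protein-coding members -1.25. In complex I 21 of 36 were called lower, among them Ndufs1 (-1.25), Ndufa10 (-1.11) and Ndufv1 (-1.07). In complex III 8 of 9 were called lower, including the core proteins Uqcrc1 (-1.03) and Uqcrc2 (-1.02) and the iron-sulfur protein Uqcrfs1 (-1.04). In complex IV 10 of 12 were called lower, including Ndufa4 (-0.93), Cox7a2 (-0.86) and Cox4i1 (-0.78). In complex V 12 of 17 were called lower, including Atp5b (-1.17) and Atp5a1 (-1.09), the beta and alpha subunits of the catalytic head, and the stalk subunit Atp5f1 (-0.85). With library size alone Ndufa4 (-0.54), Cox7a2 (-0.47), Cox4i1 (-0.39) and Atp5f1 (-0.46) did not pass.

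The ratio of mitochondrially encoded to nuclear subunit counts within a library needs no scaling. Over all complexes it was 4.87, 4.48 and 5.64 at day 0 and 3.41, 3.07 and 2.73 at day 21, a log2 difference of -0.702. For complex I the difference was -0.831, for complex III -0.783, for complex IV -0.787 and for complex V -1.27. The groups did not overlap in any of these 5 ratios (exact permutation p = 0.1 each, adjusted 0.133 over 8 ratios). Divided by exon length, the difference over all complexes was -0.801. The complex V ratio rests on mt-Atp6 and mt-Atp8 alone, with 131 to 680 counts between them, and a nuclear copy matches nearly all of mt-Atp6.

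**Figure D5:**
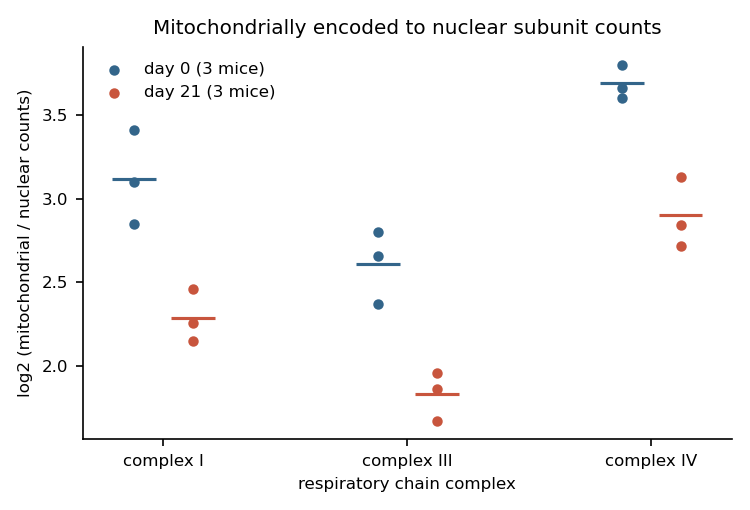
Log2 ratio of summed mitochondrially encoded to summed nuclear-encoded subunit counts in each mouse (y axis) for complexes I, III and IV (x axis), with points for mice and horizontal lines for group means. The complex I mean was 3.12 on day 0 and 2.29 on day 21, and in each complex drawn the day-21 mice lay below the day-0 mice.

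Of 51 nuclear genes that express and maintain the mitochondrial chromosome, 10 were called lower and 1 higher, beside 15.5% lower and 19.6% higher among all genes tested, and 40 did not pass. Their median log2 fold change was -0.30. Of 11 genes of its transcription, 3 were called lower: Tfb2m (-0.63), which opens the promoter, Mterf3 (-0.59), a regulator of mitochondrial transcription, and Mrpl12 (-0.82), a ribosomal protein that also binds the polymerase. Polrmt, the polymerase, was at -0.40 (adjusted p = 0.0097), short of the fold threshold. Tefm, its elongation factor, was at -0.24 (adjusted p = 0.27) and did not pass either. Tfam, which packages the DNA and starts transcription, was at -0.30 (adjusted p = 0.046), short of the fold threshold. With library size alone Tfam and Tefm were above 0 and none of the 3 passed (Tfb2m -0.24, Mterf3 -0.20, Mrpl12 -0.43). Tfb2m also lost its call with upper quartile scaling (-0.55) or without day-21 replicate 1 (-0.58). Mterf3 did so with upper quartile scaling (-0.50), with either other filter on low counts (-0.58 and -0.56), and without day-0 replicate 2 (-0.56) or day-21 replicate 2 (-0.52). The list's median was -0.24.

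Of 25 genes of mitochondrial RNA processing and stability, 5 were called lower, none was called higher and the median was -0.33. For this list and the next, the shares over all genes tested were 15.5% lower and 19.6% higher. The 3 largest falls were those of Grsf1 (-0.92), an RNA granule protein, Lrpprc (-0.72), which stabilises the mRNAs, and Tbrg4 (-0.69), also known as Fastkd4. With library size alone these 3 did not pass either (Grsf1 -0.53, Lrpprc -0.33, Tbrg4 -0.30). Slirp, the partner of Lrpprc, was at 0.11 and did not pass. Among 15 genes of replication and nucleotide supply, 2 were called lower, namely Slc25a33 (-1.53), a pyrimidine nucleotide carrier, and Top1mt (-0.86, but -0.47 and not passed with library size alone), a topoisomerase. Primpol, a primase, was called higher (1.03). Polg, the DNA polymerase, was at -0.27 (adjusted p = 0.057) and Twnk, the helicase, at -0.38 (adjusted p = 0.010). Neither was called, Twnk being short of the fold threshold, and both were above 0 with library size alone. The median of this list was -0.27.

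Of 15 regulators of mitochondrial biogenesis, 7 were called lower and none higher, beside 15.5% lower and 19.6% higher among all genes tested. The median of the 15 was -0.50. The 3 largest falls were those of Perm1 (-2.56), a regulator of oxidative genes known from muscle, Esrrb (-2.12), an estrogen-related receptor, and Ppara (-1.97), the receptor that drives fatty acid oxidation. Ppargc1a, the coactivator PGC-1α, was at -0.50 (adjusted p = 0.034) and short of the fold threshold, which it passed without day-0 replicate 1 (-0.70).

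Cell type markers moved between the same mice. All 6 proximal tubule markers were lower, with a median of -1.99, and their summed level went from 9267 to 10113 CPM on day 0 to between 1784 and 2213 CPM on day 21. All 6 leukocyte markers rose (117 to 138 CPM, then 487 to 670 CPM, median 2.66), as did all 4 fibroblast markers (92.3 to 126 CPM, then 429 to 638 CPM, median 1.73). Of 4 thick ascending limb markers 2 were called lower and 1 higher (summed 5564 to 6902 CPM, then 3655 to 4145 CPM). Of 3 distal convoluted tubule markers 2 were called lower (804 to 1377 CPM, then 489 to 655 CPM). Of 3 collecting duct markers 1 was called lower (399 to 527 CPM, then 252 to 308 CPM). No marker was at 0 in any library. The part of these shifts in the fall of the mitochondrially encoded genes was not tested.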

How the data were processed

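The authors extracted total kidney RNA, made TruSeq libraries, sequenced paired reads of 150 bases and deposited raw counts per gene for each mouse, with no normalization. The submitters' processing notes name TopHat and the mm10 build. The counting program, its strand setting and its handling of reads that fit several places are not given in the sources used here. Identifiers were matched to GENCODE M21 (GRCm38), which supplied positions and transcript sequences.

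Counts were filtered with filterByExpr (minimum count 10, minimum total 15), scaled by TMM and tested over 16592 genes in edgeR 4.0.16 under R 4.3.3, with DESeq2 1.42.0 and limma 3.58.1 as alternatives. DEGs needed a fold over 1.5 at an adjusted p under 0.05. The edgeR step was tested on simulated data. Shares, composition and ratios were compared by two-sided exact permutation tests over mice. Transcripts were compared by shared words of 50 bases in Python 3.11.15. Counting floors of 3 counts cover counting error only. The labels give each replicate a number and a code without stating what the code names, so p-values measure the spread between these samples.

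All protein-coding and rRNA members were named, with the 5 tRNA genes of highest mean and any other tRNA gene called. From each nuclear list the 3 largest falls and rises were named among DEGs whose mean reached 50 counts, besides Polrmt, Tfam, Tfb2m, Tefm, Lrpprc, Slirp, Ppargc1a, Polg and Twnk. Members, lists and markers were chosen with earlier results of these data known. Alternatives were other scalings and filters, DESeq2, limma-voom, a replicate block, each mouse left out and stricter thresholds.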

Additional observations from a re-analysis of the deposited data

How the results depend on the processing

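The count of members called lower (21) ranged from 18 to 22 over the alternatives run, and that of protein-coding members (12) from 11 to 13. The 18 came with a mean of at least 50 counts required, where every member tested was called. The 22 came with no filter on low counts, where more members were tested. With library size alone, 8 nuclear subunits were called lower (51 with TMM). For mitochondrial transcription, RNA processing or replication, 1 gene was then called lower (10 with TMM) and 6 higher (1 with TMM). Tfam (0.09), Tefm (0.15), Polg (0.12) and Twnk (0.01) changed sign. With upper quartile scaling 6 genes of those lists were called lower. Thresholds of 0.01 for the adjusted p and 2 for the fold gave 8 lower subunits and 1 lower gene of the other lists, fewer by construction. Without the 20 highest other genes the share of all members fell by 5.98 percentage points. The causes were not tested.

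Values near 0 turned sign when 1 mouse was left out. The log2 of Slirp ran from -0.01 to 0.20. Composition differences in percentage points ran from -0.531 to 0.205 for mt-Nd1 (0.00389 with exon length), from -0.0305 to 0.0541 for mt-Co3 and from -0.234 to 0.549 for mt-Nd4. The log2 ratio difference of rRNA to protein-coding counts ran from -0.223 to 0.214 (0.00185 with exon length) and that of tRNA from -0.155 to 0.162.

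Whether replicate numbers pair the mice could not be settled, since deviations from a mean of 3 mice are tied to each other. Correlations of same-numbered deviations were -0.019, 0.165 and 0.0896, and the others ran from -0.181 to 0.116. With a replicate block 21 members, 12 of them protein-coding, 51 nuclear subunits and 10 other nuclear genes were lower, the counts without the block. At under about 10 counts per library the tRNA genes could not be compared.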
